A study of Mus musculus with 6 samples.

Results

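The genes described here are App, which encodes the amyloid precursor protein, its paralogs Aplp1 and Aplp2, and 4 genes that act on or travel with their products: Bace1, Adam10, Psen2 and Clstn1. These 7 genes of the 17418 in the UMI count table were chosen by name, with earlier results of these data known. Their counts were summed per mouse and subtype, with cells marked as doublets left out. The series profiled single cells from the cerebral cortex of mice at postnatal day 5 with InDrop, a droplet method that tags the 3′ end of each captured mRNA with a cell barcode and a unique molecular identifier (UMI). The 3 WT mice were of the strain FVB.129P2-Pde6b+ Tyrc-ch/AntJ and the 3 Fmr1-KO mice carried the Fmr1tm1Cgr allele on the same background, so that mice of both groups shared the Pde6b+ and Tyrc-ch alleles. The knockout was in every cell of the animal, both sexes were used, and each mouse was collected on its own as 1 sample. WT 1, Fmr1-KO 1 and Fmr1-KO 2 were run on V2 beads, and WT 2, WT 3 and Fmr1-KO 3 on V3.8 beads, so the bead version was crossed with the genotype but not balanced.

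The proteins of the App family span the membrane once and are cut in steps. ADAM10 is the main alpha-secretase and BACE1 the beta-secretase, and each removes the ectodomain, after which the gamma-secretase complex, of which PSEN2 can be the catalytic subunit, cuts the remaining stub within the membrane. Cutting of APP first by BACE1 and then by gamma-secretase yields the amyloid-beta peptide, whereas ADAM10 cuts inside that peptide. CLSTN1 (calsyntenin 1) links vesicles that hold APP to the kinesin motor, and App mRNA is a known target of FMRP, the RNA-binding protein encoded by Fmr1. In the cortex these proteins are known for their roles in axon transport, synapse formation and, for BACE1, in the myelination of axons through neuregulin 1.

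Gene positions are those of GENCODE M21 on GRCm38, which is the mm10 build to which the reads were aligned. App lies on chr16:84949685-85173766 on the minus strand, Aplp1 on chr7:30434982-30445535 (minus), Aplp2 on chr9:31149557-31211815 (minus), Bace1 on chr9:45838580-45864399 (plus), Adam10 on chr9:70678997-70780229 (plus), Psen2 on chr1:180227004-180263438 (minus) and Clstn1 on chr4:149586468-149648899 (plus). The 3′ end of Bace1 lies within 1000 bases of Rnf214 and that of Clstn1 within 1000 bases of Pik3cd, both on the opposite strand, and the counting is not stated to use strand. The promoters of the 3 paralogs are shown because the 3 genes differ in how widely the subtypes expressed them. Each run is the RefSeq promoter of GRCm38.p6, from 250 bases before to 50 bases after the start that RefSeq gives, which is not the GENCODE start above, 5′ to 3′ on the minus strand, where all 3 genes lie, with GC boxes (GGGCGG or, on the other strand, CCGCCC) in capitals.
App, chr16:85173658-85173957: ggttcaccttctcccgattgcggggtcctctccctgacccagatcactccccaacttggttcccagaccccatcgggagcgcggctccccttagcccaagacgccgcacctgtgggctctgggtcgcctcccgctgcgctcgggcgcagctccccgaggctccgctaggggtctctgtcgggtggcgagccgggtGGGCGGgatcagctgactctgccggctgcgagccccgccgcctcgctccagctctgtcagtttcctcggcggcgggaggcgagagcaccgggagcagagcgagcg
Aplp1, chr7:30445533-30445832: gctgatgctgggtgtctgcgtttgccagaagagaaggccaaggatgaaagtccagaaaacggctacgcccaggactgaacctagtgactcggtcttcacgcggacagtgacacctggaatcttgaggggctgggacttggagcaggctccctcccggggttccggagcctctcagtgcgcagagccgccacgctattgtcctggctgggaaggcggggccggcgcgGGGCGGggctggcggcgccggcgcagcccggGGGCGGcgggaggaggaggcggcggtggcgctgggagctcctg
Aplp2, chr9:31211799-31212098: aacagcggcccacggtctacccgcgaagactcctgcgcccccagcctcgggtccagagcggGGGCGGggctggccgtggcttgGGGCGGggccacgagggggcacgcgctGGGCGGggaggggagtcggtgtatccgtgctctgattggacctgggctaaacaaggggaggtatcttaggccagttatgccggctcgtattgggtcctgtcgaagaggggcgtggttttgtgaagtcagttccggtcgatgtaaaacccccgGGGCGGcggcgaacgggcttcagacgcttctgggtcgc
The App window held 1 GC box, that of Aplp1 held 2 and that of Aplp2 held 4. A GC box was found in 35.7% of all 32851 promoters of this length and at least 4 in 5.49%. The CG dinucleotide occurred 30 times in the App window, 26 times in Aplp1 and 29 times in Aplp2, against a median of 7 over all promoters. None of the 3 held TATAAA or, on the other strand, TTTATA, which 13.6% of all promoters did. RefSeq promoter entries were found for 6 of the 7 genes, all but Bace1.

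The table held 18393 cells in 17 libraries, of which 17280 were not doublets, with 7909181 to 20629134 UMIs per mouse and a median of 1957 to 4908 UMIs per cell. Over all cells, App had 3518 to 8780 UMIs per mouse, and Psen2, the rarest of the 7, had 200 to 523. Libraries of the same mouse shared cell barcodes: 4348 cells that were not doublets, or 25.2%, had a barcode that was also in another library of that mouse, from 6.46% in Fmr1-KO 1 to 45.6% in Fmr1-KO 2. Of the 3113 pairs of cells with the same barcode in the same mouse, 96.1% had the same subtype, against 17.6% of the 432 such pairs between mice and 18.4% of any 2 cells, so cells that share a barcode within a mouse were mostly of 1 subtype, and how they came to be in several libraries was not tested. The sums per mouse did not mix mice, and leaving these cells out, an alternative chosen after seeing the data, moved none of the 77 levels of the 7 genes in the cell types compared below by over 1 SD and changed no call. Of 55 markers listed for the subtypes, 46 were highest in the subtype they mark and 53 were among its 2 highest. Among them, Reln was at 11879 CPM in the cells labelled CR (Cajal-Retzius neurons) and no higher than 202 CPM in any other subtype. Of the 5 Excitatory markers, 3 were higher elsewhere: Slc17a6 in CR (605 CPM), and Neurod2 (717 CPM) and Neurod6 (428 CPM) in SVZ, the migrating neurons of the subventricular zone. Fmr1 itself was lower in every Fmr1-KO mouse than in every WT mouse in each of the 11 cell types compared below, and in Astrocytes_1 it was 80.9 ± 1.19 CPM in WT and 18.0 ± 0.323 CPM in Fmr1-KO (SD, n = 3 each).

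Levels are given in CPM, the gene's UMIs per 1000000 UMIs of a mouse's cells in a subtype, for mice with at least 10 cells of the subtype. Orders, highest and lowest levels of the 7 genes are over the 14 subtypes with at least 4 such mice. Since each UMI stands for 1 captured 3′ end, CPM do not grow with transcript length, but capture can differ between genes. The subtypes were clustered by the authors from the same cells, so levels between subtypes are a description without a test.

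App was the most abundant of the 3 paralogs in the excitatory neurons and had UMIs in 17 of the 18 subtypes, the 16 cells labelled Tcells holding none. In the Excitatory cells its level was 1415, 1129 and 1138 CPM in WT 1, 2 and 3 and 1381, 1812 and 1013 CPM in Fmr1-KO 1, 2 and 3, with a mean of 1315 ± 289 CPM (SD, n = 6). The CR cells followed at 1107 ± 82.9 CPM (SD, n = 5), and 4 of 5 mice with both subtypes had more App in Excitatory. The 2 ranges overlapped, so the order of these neighbours did not exceed the spread between mice. Below them, CR was above Oligodendrocytes (753 ± 117 CPM) in 5 of 5 mice with no overlap, which was the only such step among the 13 between neighbours in the order of App. Oligodendrocytes, Endothelial (722 ± 128 CPM) and Pericytes (686 ± 35.9 CPM) could not be ordered beyond their spread. The Interneuron level was lower, at 426, 709 and 496 CPM in WT 1, 2 and 3 and 327, 398 and 417 CPM in Fmr1-KO 1, 2 and 3. In each of the 6 mice App was higher in Excitatory than in Interneuron, by a factor of 1.59 to 4.55, and the ranges did not overlap. The dividing inhibitory precursors labelled Ganglionic had 135 ± 36.8 CPM (SD, n = 6), close to Microglia at 138 ± 30.4 CPM, and 3 of 6 mice had more App in Microglia than in Ganglionic. App in Excitatory was 7.97 to 17.1 times that of Ganglionic within a mouse.

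**Figure D1:**
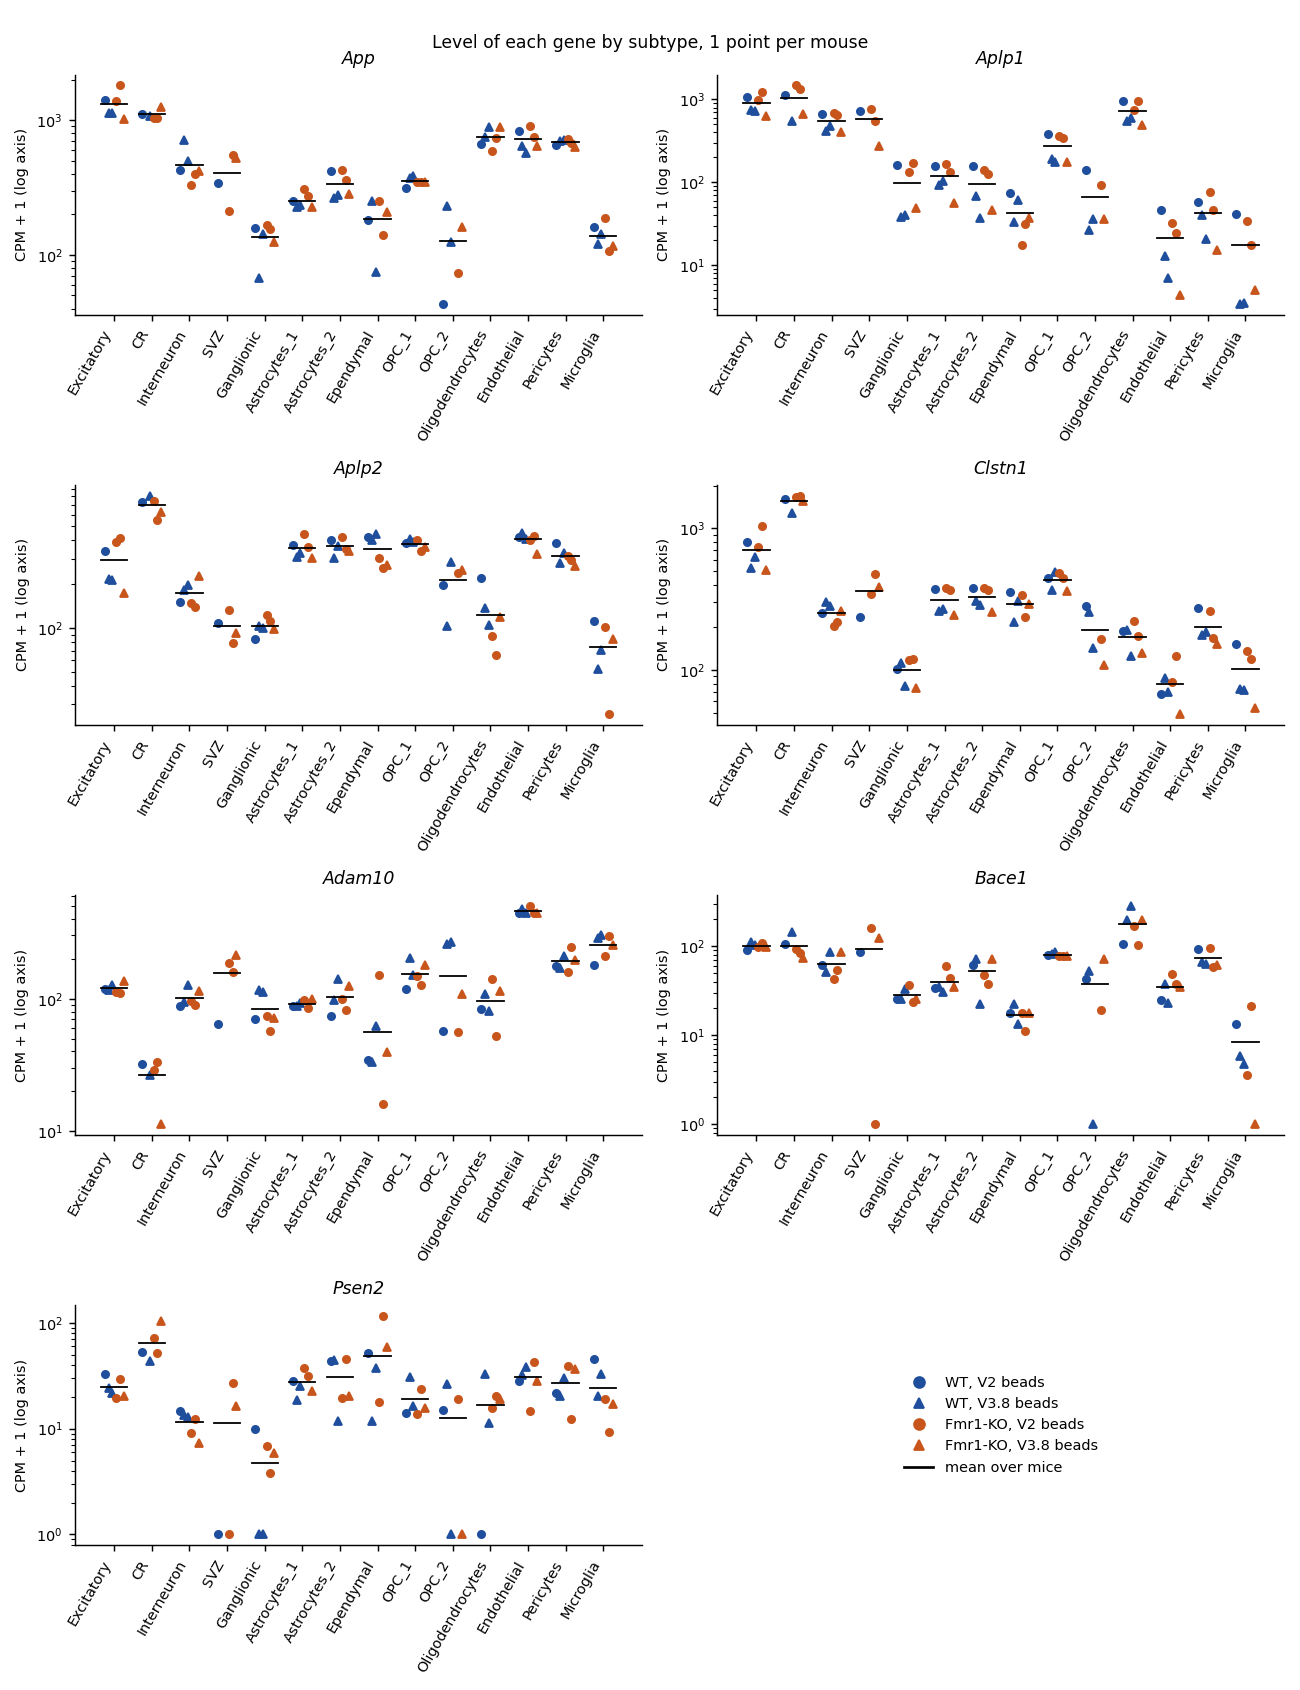
Level of each of the 7 genes by subtype, as CPM + 1 on a log axis, with 1 point per mouse that had at least 10 cells (colour for genotype, shape for bead version) and a bar for the mean. App is lowest in OPC_2 (3 to 9 UMIs per mouse), Ganglionic and Microglia. Aplp1 falls from 1027 CPM in CR to 16.6 CPM in Microglia, and Adam10 is highest in Endothelial and lowest in CR.

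Aplp1, the paralog known as the neuronal one, had the widest range of the 7 genes over these 14 subtypes, with a mean in its highest subtype 61.7 times that in its lowest. In Excitatory it stood at 1079.9, 753 and 723 CPM in WT 1, 2 and 3 and 996, 1228 and 640.0 CPM in Fmr1-KO 1, 2 and 3. The CR mean was 1027 ± 408 CPM (SD, n = 5) and the Interneuron mean 549 ± 129.7 CPM (SD, n = 6). Oligodendrocytes lay among the neurons in Aplp1, at 945, 553 and 604 CPM in WT 1, 2 and 3 and 753, 971 and 495 CPM in Fmr1-KO 1, 2 and 3, and lay below Excitatory in 6 of 6 mice although the ranges overlapped. OPC_1, the oligodendrocyte precursors, came next with a mean of 272 CPM and a range of 176 to 385 CPM, under Interneuron and over Astrocytes_1 (118 ± 41.7 CPM) in 6 of 6 mice each and without overlap on either side. At the other end, Endothelial cells had 3.41 to 45 CPM and Microglia 2.43 to 40.8 CPM. These last values rest on 1 to 13 UMIs per mouse in Microglia, where UMIs of free RNA could not be told apart from expression.

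Aplp2 was spread more evenly over the non-neuronal cells. It was highest in CR, at 737 and 810.1 CPM in WT 1 and 3 and 748, 555 and 628 CPM in Fmr1-KO 1, 2 and 3, above Endothelial (405 ± 44.2 CPM) in 5 of 5 mice without overlap. Endothelial, OPC_1, Astrocytes_2, Astrocytes_1 and Ependymal followed with means from 405 down to 348 CPM, and no step among these 5 exceeded the spread. The Excitatory mean was 289.8 ± 102 CPM (SD, n = 6), the Oligodendrocytes mean 121 ± 53.5 CPM and the Microglia mean 73.2 ± 32.0 CPM. Oligodendrocytes were thus high in App and Aplp1 and among the lower subtypes in Aplp2.

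The make-up of the family shows this difference within each mouse, since all 3 genes were counted in the same cells. Of the UMIs of App, Aplp1 and Aplp2 together, App made up 52.8% ± 2.41 (SD, n = 6) in Excitatory, Aplp1 35.9% ± 1.17 and Aplp2 11.3% ± 1.67. Interneuron cells had 38.8% ± 9.05 App, 46.4% ± 10.8 Aplp1 and 14.8% ± 3.85 Aplp2, but the order of App and Aplp1 turned with the bead version. The V2 mice had 32.1% ± 3.25 App and 55.7% ± 2.81 Aplp1 there, and the V3.8 mice 45.5% ± 7.74 and 37.1% ± 4.65. In Astrocytes_1 the share of Aplp2 was 48.9% ± 1.64, that of App 35.2% ± 2.27 and that of Aplp1 15.9% ± 3.67. Endothelial cells had 62.7% ± 4.05 App and 35.6% ± 4.61 Aplp2, with 1.65% ± 1.18 left for Aplp1 (2.61% ± 0.766 in the V2 mice and 0.690% ± 0.375 in the V3.8 mice), and Pericytes were alike with 66.3% ± 3.47 App. Oligodendrocytes had the lowest mean share of Aplp2, at 7.58% ± 2.88, and Ependymal cells the highest, at 60.6% ± 8.79.

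**Figure D2:**
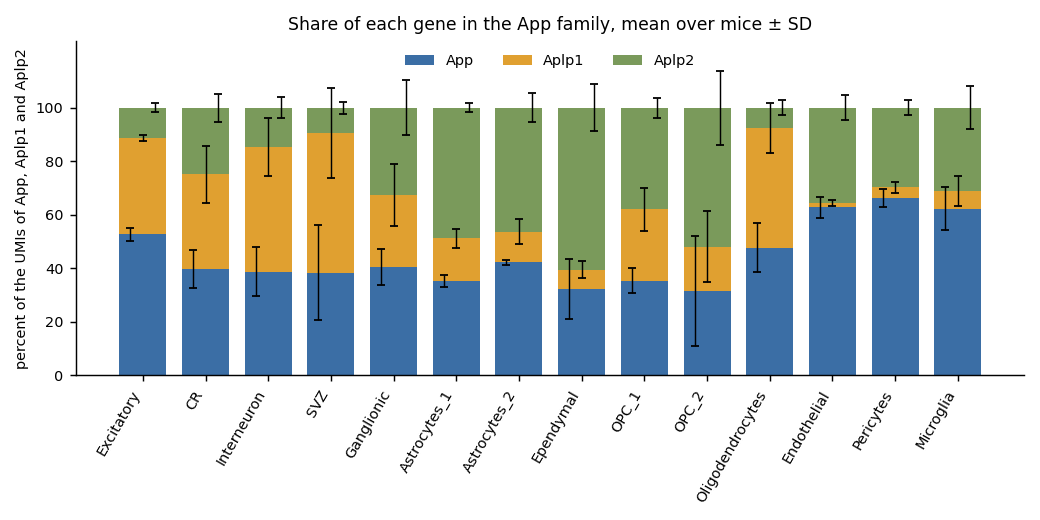
Share of App, Aplp1 and Aplp2 in the UMIs of the 3 genes, in percent, by subtype, as stacked means over 4 to 6 mice with the SD over mice drawn at the top of each segment. By its mean, Aplp2 is the largest segment in both astrocyte subtypes, both OPC subtypes and Ependymal, whereas Aplp1 is barely visible in Endothelial at 1.65%. In Astrocytes_2 the V2 mice had 43.0% App and 41.9% Aplp2. In OPC_1 Aplp2 was not the largest in WT 1 and Fmr1-KO 2, and the OPC_2 shares rest on 14 to 27 UMIs per mouse.

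Clstn1, the calsyntenin that carries APP vesicles, was highest in the CR cells, at 1609 and 1271 CPM in WT 1 and 3 and 1665, 1697 and 1554 CPM in Fmr1-KO 1, 2 and 3. These lay above Excitatory (704 ± 197 CPM) in 5 of 5 mice, and Excitatory above OPC_1 (431 ± 56.3 CPM) in 6 of 6, both without overlap. The Interneuron level was 252 ± 37.3 CPM, and Endothelial was lowest at 79.0 ± 25.9 CPM. Across the 14 subtypes with at least 100 cells, the pattern of Clstn1 ran opposite to that of the alpha-secretase gene Adam10, with Pearson's r = -0.680 of log2(CPM + 1), a description over subtypes that share their libraries. These 14 held Fibroblasts and not SVZ, whereas the 14 of the orders held SVZ and not Fibroblasts.

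Adam10 was the only one of the 7 genes with its highest level in Endothelial cells. There it stood at 444, 477 and 445 CPM in WT 1, 2 and 3 and 502, 439 and 439.9 CPM in Fmr1-KO 1, 2 and 3, a narrow range in which neither genotype nor bead version separated. Microglia had 254 ± 50.2 CPM (SD, n = 6), below Endothelial in 6 of 6 mice and without overlap. Pericytes (192 ± 32.5 CPM) were below Microglia in 6 of 6 mice, with overlapping ranges. The Excitatory level was 119 ± 9.51 CPM (SD, n = 6) and that of CR, where App, Aplp2 and Clstn1 were high, was 25.5 ± 8.89 CPM (SD, n = 5). The CR value rests on 1 to 7 UMIs per mouse.

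Bace1, the beta-secretase gene, was highest in Oligodendrocytes, at 104, 195 and 284 CPM in WT 1, 2 and 3 and 168, 103 and 196 CPM in Fmr1-KO 1, 2 and 3. WT 1, Fmr1-KO 1 and Fmr1-KO 2 had only 26, 24 and 38 of these cells. Excitatory cells had 100.4 ± 7.87 CPM (SD, n = 6) and were exceeded by Oligodendrocytes in 5 of 6 mice, with overlapping ranges. In the opposite direction, Excitatory exceeded Interneuron (62.5 ± 18.1 CPM) in 6 of 6 mice, by a factor of 1.13 to 2.27, without overlap. Microglia held 14 Bace1 UMIs in all 6 mice, and Fmr1-KO 3 held none there. A count of 0 allows up to 3 UMIs, and this limit covers counting error only. Of the pairs among the 7 genes, App and Bace1 had the highest correlation over the 14 subtypes with at least 100 cells, at r = 0.718. App and Adam10 were at r = 0.0389.

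Psen2, which encodes a catalytic subunit of gamma-secretase, was low in every subtype. CR had 63.8 ± 24.2 CPM (SD, n = 5), Ependymal 48.1 ± 37.8 CPM (SD, n = 6), Endothelial 29.7 ± 9.72 CPM and Excitatory 23.6 ± 5.31 CPM. Ganglionic was lowest, at 3.76 ± 3.52 CPM, with no Psen2 UMI in WT 2 and WT 3. None of the 13 steps in its order exceeded the spread between mice.

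The other genes of the pathway were 37 from 7 lists chosen by role. They are given here by their pooled CPM over all mice, without a test or a spread between mice. Among the secretases, Adam17 was highest in Microglia (129 CPM) and lowest in Excitatory (14.2 CPM), Adam9 was highest in OPC_1 (308 CPM), and Bace2, the paralog of Bace1, in Ependymal (131 CPM). Of the other gamma-secretase subunits, Aph1a was highest in Endothelial (291 CPM) and Psenen in Astrocytes_2 (145 CPM, against 128 CPM in Astrocytes_1). The tetraspanin Tspan14, which guides ADAM10 to the cell surface, was also highest in Endothelial (193 CPM), and Tspan15, another such partner, in Oligodendrocytes (217 CPM). Of the adaptors that bind the APP tail, Apba1 was highest in Excitatory (169.7 CPM) and Apbb1 in Oligodendrocytes (287 CPM, against 262 CPM in Excitatory). The uptake receptor Lrp1 was highest in OPC_1 (787 CPM), and Ide, which degrades amyloid-beta, in Astrocytes_1 (158 CPM).

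For each gene, the 3 genes with the most similar pattern were taken by Pearson's r of log2(CPM + 1). This was over the 14 subtypes with at least 100 cells, among 12268 genes with at least 20 CPM in one of them. Aplp1 had the closest, Cadm3 at r = 0.979, followed by Mapk8ip3 at 0.960 and Nacad at 0.955. Clstn1 was followed by Igip (0.959), Ufsp1 (0.937) and Arhgap44 (0.935), and Adam10 by Abcg2 (0.958), a transporter of the vessel wall, Lipa (0.897) and Sipa1 (0.897). Bace1 was closest to Dctn6 (0.906), Nisch (0.902) and Nckap1 (0.886). App had Trim3 (0.884), Zdhhc8 (0.870) and Creld1 (0.867), Aplp2 had Rabac1 (0.876), Pigg (0.860) and Sipa1l3 (0.857), and Psen2 had Sec24d (0.904), Orai3 (0.900) and Dhrs11 (0.881).

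Whether the loss of Fmr1 changed these genes was asked in 11 cell types with at least 100 cells per genotype: all neurons together, Excitatory, Interneuron, Ganglionic, both astrocyte subtypes, OPC_1, Oligodendrocytes, Endothelial, Pericytes and Microglia. Tests were limited to genes with a UMI in 15% or more of a type's cells, and a gene counted as changed at an adjusted p (FDR) under 0.01 with the higher group at least 15% above the lower. App, Aplp2, Clstn1 and Adam10 were tested in all 11 types, Aplp1 in 8, Bace1 in 5 and Psen2 in none, which left 57 of the 77 pairs of gene and type. By edgeR's quasi-likelihood test with the bead version as a covariate, 0 of the 57 were changed, 3 had an unadjusted p under 0.05, and the lowest adjusted p was 0.295. By DESeq2 also 0 were changed, and 2 had an unadjusted p under 0.05. Over all genes and types 0.0141% of the tests were called and 6.05% had an unadjusted p under 0.05. The share called was 0.0499% in Ganglionic, 0.0208% in Astrocytes_1, 0.0245% in OPC_1, 0.0423% in Oligodendrocytes and 0% in the other 7 types. The mice were separate animals, and with 3 against 3 an exact permutation test of 1 gene cannot go below p = 0.1.

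The App estimate farthest from 0 was that in the interneurons. There the 3 Fmr1-KO mice (327, 398 and 417 CPM) all lay below the 3 WT mice (426, 709 and 496 CPM), although WT 1 and Fmr1-KO 3 were close. The log2 fold change of Fmr1-KO over WT was -0.34 ± 0.15 (SE) by edgeR, with unadjusted p = 0.0334, adjusted p = 0.998 and a 95% interval of -0.65 to -0.03. It was -0.22 within the V2 mice and -0.54 within the V3.8 mice. Of all genes tested in interneurons, 4% were lower in every Fmr1-KO mouse and 2.39% had an unadjusted p under 0.05 and were lower. App was thus 1 of 127 genes of 3177 with the first pattern. App was chosen with earlier results of these data known, so these shares do not test it. WT 2, the highest, had 59 interneurons and 114 App UMIs, and without it the log2 fold change was -0.24. It was -0.22 without Fmr1-KO 3 and -0.36 without the cells of shared barcodes. With each cell thinned to 700 UMIs it was 0.035. Markers of excitatory neurons summed to 106 to 432 CPM in WT and 238 to 446 CPM in Fmr1-KO in the interneurons, and markers of mature neurons to 688 to 1387 CPM in WT and 609.9 to 976 CPM in Fmr1-KO, and their part in the App values was not tested.

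In the excitatory neurons App was 1227 ± 163 CPM in WT and 1402 ± 399.5 CPM in Fmr1-KO, with a log2 fold change of 0.02 ± 0.14 (SE) and unadjusted p = 0.893, adjusted p = 0.999 by edgeR. The 95% interval was -0.29 to 0.33. The difference between the interneuron and excitatory effects was itself tested with the mouse as a block. For App it was -0.64 ± 0.32 (SE) with unadjusted p = 0.0631, adjusted p = 0.999, and with a term for bead version by subtype -0.36 with unadjusted p = 0.0273 and adjusted p = 0.997. None of the 6 genes tested differed between the 2 subtypes at an adjusted p under 0.05, nor, without that term, did any of the 3552 genes tested (0%).

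Over all neurons together App was 869.9, 971 and 953 CPM in WT 1, 2 and 3 and 626, 915 and 727 CPM in Fmr1-KO 1, 2 and 3. The log2 fold change was -0.29 ± 0.15 (SE), with unadjusted p = 0.0909, adjusted p = 0.374 by edgeR. The share of Excitatory cells among the neurons was 56.8, 75.3 and 49.5% in WT 1, 2 and 3 and 42.0, 48.6 and 35.6% in Fmr1-KO 1, 2 and 3. It did not overlap between the genotypes, although WT 3 and Fmr1-KO 2 were close. These shares count the cells of shared barcodes, which were 13.2% of all cells in WT 3 and 45.6% in Fmr1-KO 2. When 162 Excitatory, 59 Interneuron and 61 Ganglionic cells were taken from every mouse in 1 random draw, the App value turned to 0.12. This made the mix of cells the same in each mouse and left out CR and SVZ. The UMIs of the drawn cells were summed as counted, so the share of UMIs from each subtype was not made equal. The draw was not repeated, so the spread of its values over draws is not known. Excitatory cells held a median of 976 UMIs in WT 1 and 8588 in WT 3. With all neurons and 1 mouse left out, the log2 fold change of App ranged from -0.44 (without Fmr1-KO 2) to -0.16 (without Fmr1-KO 3). It was -0.19 without Fmr1-KO 1. App in Excitatory was 2.88 times that in Interneuron at the median over mice. All 6 genes tested in the pooled neurons had a log2 fold change below 0, with a median of -0.19, against a median of 0.00038 and 49.9% below 0 over all 3763 genes. With the same mix of cells in every mouse 4 of the 6 were below 0, and without the bead version in the fit 5. In Excitatory alone 3 of the 6 were below 0, with a median of 0.007.

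**Figure D3:**
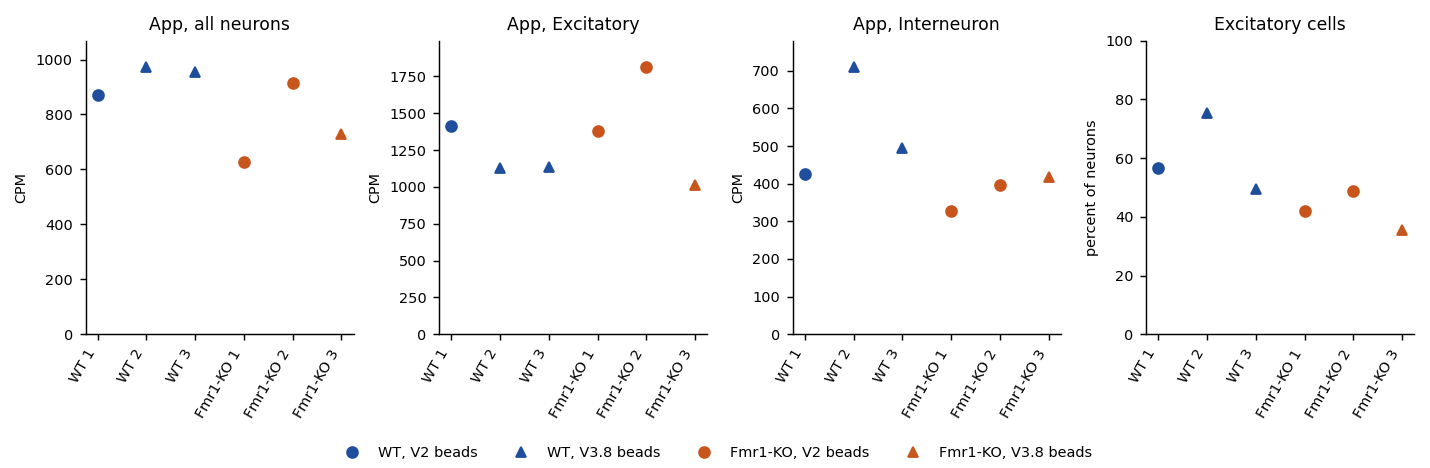
App in CPM in all neurons, Excitatory and Interneuron, and the share of Excitatory cells among the neurons in percent, with 1 point per mouse (colour for genotype, shape for bead version). The Fmr1-KO mice are lower in Interneuron (327 to 417 CPM against 426 to 709 CPM) and in the share of Excitatory cells, but not in Excitatory itself.

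Aplp1 had an unadjusted p under 0.05 in 2 types. In all neurons the log2 fold change was -0.27 ± 0.11 (SE) with unadjusted p = 0.0444, adjusted p = 0.295 by edgeR. There 8.21% of all genes were lower with such a p. The random draw above, with the same number of cells of each subtype from every mouse, gave -0.049. With all neurons the value was -0.11 without Fmr1-KO 3, -0.42 without WT 1 and -0.075 without the bead version in the fit. In Astrocytes_1 the levels were 157, 92.6 and 102 CPM in WT 1, 2 and 3 and 164, 134 and 55.3 CPM in Fmr1-KO 1, 2 and 3, which overlapped between the genotypes. The log2 fold change was -0.41 ± 0.17 (SE) with unadjusted p = 0.0430, adjusted p = 0.924 by edgeR, and 2.47% of all genes were lower with such a p. It was -0.052 within the V2 mice and -0.80 within the V3.8 mice, -0.81 without WT 1, -0.049 without Fmr1-KO 3 and 0.007 without the bead version in the fit. The 6 markers of mature neurons summed to 13.8 to 82.8 CPM in WT and 14.4 to 94.2 CPM in Fmr1-KO in these astrocytes, with Fmr1-KO 3 and WT 3 lowest, and their part in the value was not tested.

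The other genes had no unadjusted p under 0.05. With the bead version in the fit, Clstn1 had a log2 fold change below 0 in all 11 types, from -0.33 in Microglia to -0.0011 in Ganglionic, with an adjusted p of 0.578 or more, and within the bead versions the 2 signs were the same in 5 of the 11. Without the bead version in the fit Clstn1 was above 0 in 8 of the 11 types, and without Fmr1-KO 3 in 6, so the shared direction was not kept in every fit. The bead version was not balanced between the genotypes, so a fit without it cannot tell the 2 apart. The all-neuron value holds the cells of 3 of the other types, and all 11 share the same mice. Clstn1 was chosen with earlier results of these data known. The share of all genes with a single sign in all 11 types is not given here. Adam10 was above 0 in 9 of 11 types, or in 5 without the bead version in the fit, with values from -0.38 to 0.27. In Endothelial, where Adam10 was highest, it was 455 ± 18.5 CPM in WT and 460.1 ± 36.0 CPM in Fmr1-KO, with a 95% interval of -0.24 to 0.36 for the log2 fold change. Aplp2 ranged from -0.49 in Oligodendrocytes, which rests on 10 to 65 UMIs per mouse and was -0.013 without WT 1 and -1.52 without Fmr1-KO 3, to 0.24 in Ganglionic. Bace1 in OPC_1 was lower in every Fmr1-KO mouse (76.2 to 77.4 CPM) than in every WT mouse (78.8 to 84.9 CPM), as were 4.44% of all genes, but the log2 fold change was only -0.061 ± 0.15 (SE).

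Of the 6 genes tested, Bace1 was the one whose genotype effect differed most between neurons and Astrocytes_1. In Astrocytes_1, where it was below the 15% filter, its levels were 32.8, 33.8 and 29.9 CPM in WT 1, 2 and 3 and 58.8, 43.5 and 33.7 CPM in Fmr1-KO 1, 2 and 3, and in all neurons 87.6 ± 14.3 CPM in WT and 69.4 ± 10.2 CPM in Fmr1-KO. The difference of the effects, neurons minus Astrocytes_1, was -0.84 ± 0.30 (SE) with unadjusted p = 0.0255, adjusted p = 0.619 in edgeR's test, a p under 0.05 that 7.26% of the 4506 genes tested had. For App the same difference was -0.53 ± 0.24 (SE) with unadjusted p = 0.0572, adjusted p = 0.619. With a term for bead version by cell type they were -0.60 for Bace1 (unadjusted p = 0.0129, adjusted p = 0.335) and -0.45 for App (unadjusted p = 0.0417, adjusted p = 0.408). With the random draw above, which gave every mouse the same mix of neuron subtypes, the differences became -0.63 for Bace1 and -0.10 for App. None of the 6 genes passed an adjusted p of 0.05, and 0% of all genes did.

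**Figure D4:**
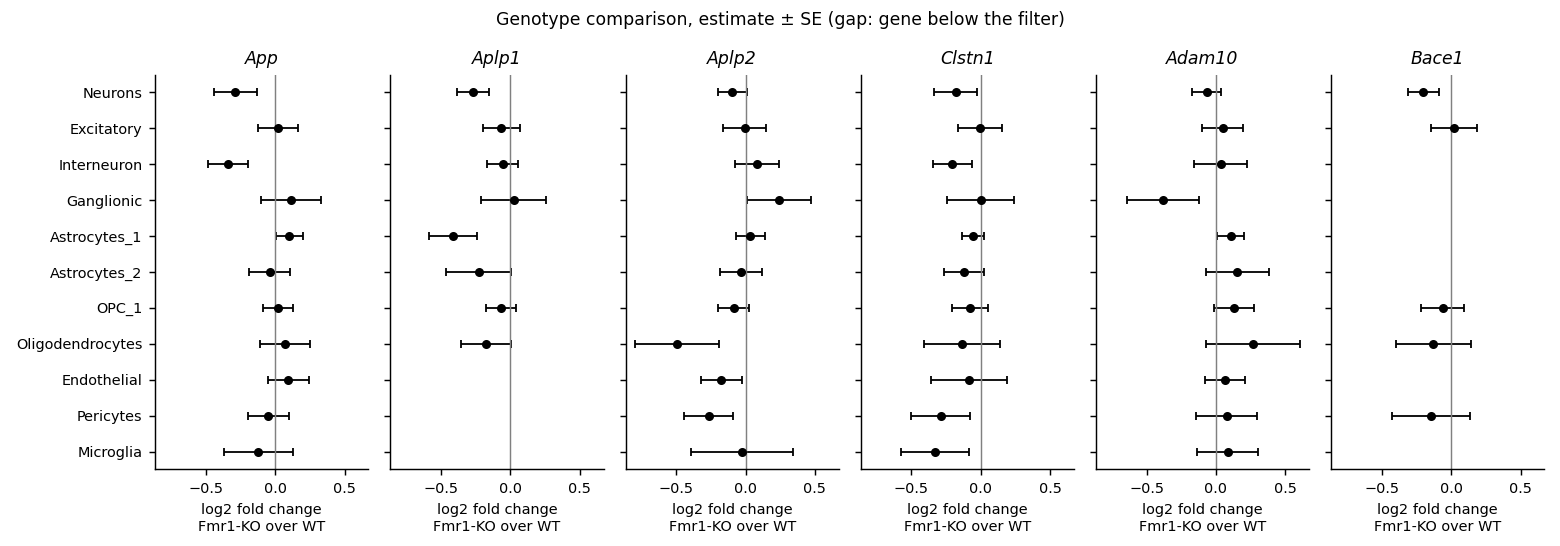
Log2 fold change of Fmr1-KO over WT by edgeR for 6 genes in up to 11 cell types, with bars of 1 SE, and gaps where the gene was below the filter. App is lowest in Interneuron at -0.34 and close to 0 in Excitatory, and the lowest estimate of all is that of Aplp2 in Oligodendrocytes at -0.49.

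Of the 37 other genes of the pathway, 29 were tested in at least 1 type, in 214 tests. By edgeR 0 were changed in either direction, and 8 tests had an unadjusted p under 0.05 and a higher level in Fmr1-KO, 5 a lower one. Of all 42575 tests over genes and types, 0.0141% were called and 6.05% had such a p in either direction. DESeq2 called 0 of the pathway genes as well. By list, 4 of 6 gamma-secretase genes, 2 of 3 alpha and beta secretases, 8 of 9 secretase partners, both calsyntenins, 6 of 8 adaptors, 5 of 5 genes of sorting and uptake and 2 of 4 of peptide degradation were tested. The median log2 fold change over the 214 tests was -0.027. In Excitatory the 2 smallest p-values were those of Apbb2, an adaptor of the APP tail (0.31 ± 0.16, unadjusted p = 0.0724, adjusted p = 0.999), and Itm2b, a membrane protein that binds APP (-0.23 ± 0.14, unadjusted p = 0.132, adjusted p = 0.999). In Interneuron they were Rtn4, a reticulon that binds BACE1 (0.23 ± 0.10, unadjusted p = 0.0358, adjusted p = 0.998), and Tspan15 (0.55 ± 0.24, unadjusted p = 0.0372, adjusted p = 0.998). In Astrocytes_1 they were Adam17, an alpha-secretase (0.34 ± 0.11, unadjusted p = 0.0124, adjusted p = 0.924), and Ncstn, the nicastrin subunit of gamma-secretase (0.28 ± 0.10, unadjusted p = 0.0280, adjusted p = 0.924). These values are log2 fold changes ± SE with the p of edgeR. Every Fmr1-KO mouse was above every WT mouse for Ncstn in Astrocytes_1, as were 2.33% of all genes there, and for Rtn4 in Interneuron, as were 2.86%. Over the other types in which they were tested, the same 6 genes held 2 more such cases, which were chosen after their values were seen. Ncstn in Interneuron, below the 15% filter and so untested, was also higher in every Fmr1-KO mouse, on 85 UMIs in all. The shares of all genes given here cover only genes above the filter, so none applies to this value. Tspan15 in Astrocytes_2 was higher in every Fmr1-KO mouse, as were 4.16% of all genes, with 0.86 ± 0.25 and the smallest p of the 214 tests (edgeR, unadjusted p = 0.00282, adjusted p = 0.789). Itm2b in Endothelial was lower in every Fmr1-KO mouse, as were 4.9% of all genes, with -0.17 ± 0.14 (edgeR, unadjusted p = 0.260, adjusted p = 0.723).

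The bead version separated Aplp1 more often than the genotype did. In all 8 types in which Aplp1 was tested, every V2 mouse was above every V3.8 mouse, by a ratio of means from 1.30 in all neurons to 3.70 in Ganglionic. In OPC_1 it was 346 to 385 CPM in the V2 mice and 176 to 189 CPM in the V3.8 mice, in Ganglionic 132 to 171 CPM in the V2 mice and 37.0 to 48.8 CPM in the V3.8 mice and in Oligodendrocytes 753 to 971 CPM in the V2 mice and 495 to 604 CPM in the V3.8 mice. The share of all genes that was higher in every V2 mouse was 26.9% in all neurons, 22.9% in Excitatory, 19.4% in Interneuron, 15.3% in Ganglionic, 29.4% in Astrocytes_1, 16.4% in Astrocytes_2, 16.8% in OPC_1 and 10% in Oligodendrocytes. The bead version is the 1 difference between the runs that the labels give, and other differences between them cannot be told apart from it.

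Markers of mature neurons were also higher in the V2 mice in cells other than neurons. The 6 listed genes summed to 234 to 278 CPM in the V2 mice and 111 to 173 CPM in the V3.8 mice in OPC_1, 102 to 186 CPM in the V2 mice and 20.7 to 40.7 CPM in the V3.8 mice in Oligodendrocytes, 78.6 to 94.2 CPM in the V2 mice and 13.8 to 35.5 CPM in the V3.8 mice in Astrocytes_1 and 103 to 143 CPM in the V2 mice and 16.3 to 33.4 CPM in the V3.8 mice in Microglia, with Nefm at 0 in at least 1 mouse in each of these but OPC_1. In the interneurons the direction was the opposite, with 609.9 to 702 CPM in the V2 mice and 976 to 1387 CPM in the V3.8 mice, while Aplp1 there was 658 to 678 CPM in the V2 mice and 404 to 478 CPM in the V3.8 mice. The part of neuronal RNA in the Aplp1 values of the other cells was not tested. In Microglia, where Aplp1 was below the filter, the V2 mice had 16.4 to 40.8 CPM and the V3.8 mice 2.43 to 4.07 CPM.

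**Figure D5:**
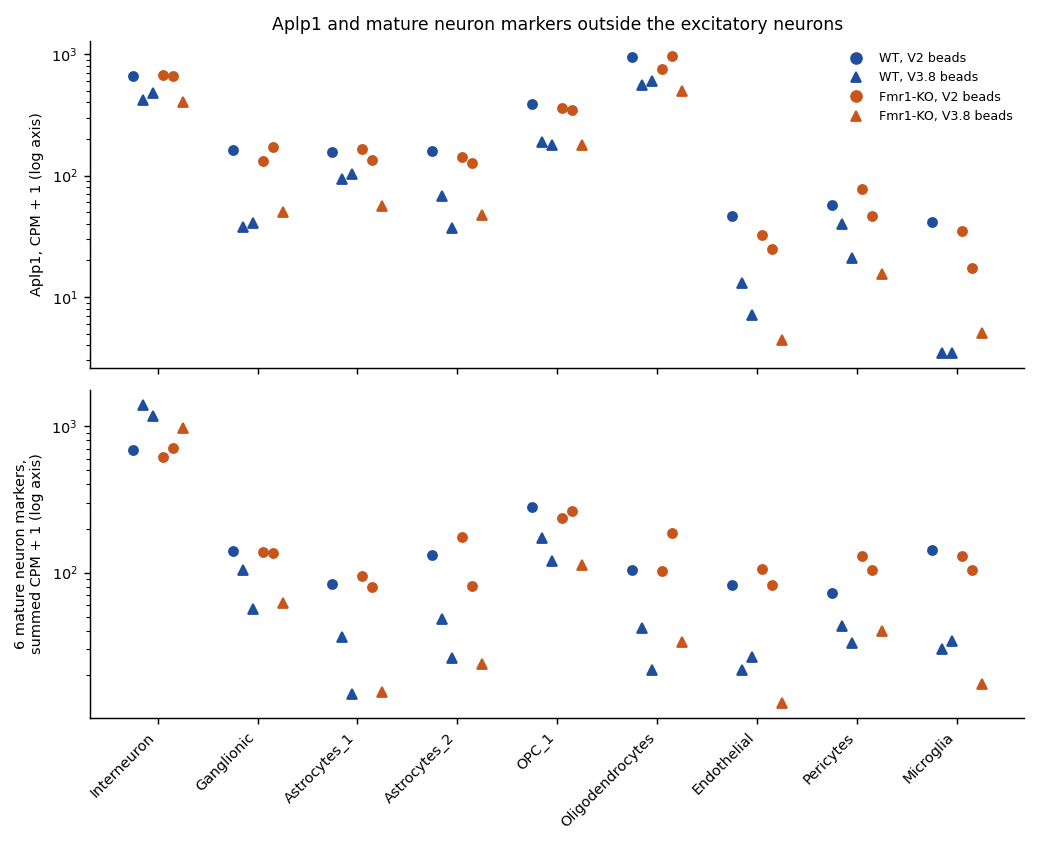
Aplp1 (top) and the summed level of 6 markers of mature neurons (bottom), as CPM + 1 on log axes, in 9 cell types with 1 point per mouse (circles V2 beads, triangles V3.8 beads, colour for genotype). In OPC_1 the V2 mice are at 346 to 385 CPM of Aplp1 and the V3.8 mice at 176 to 189 CPM, and in Interneuron the markers run the other way.

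The other genes split by bead version less uniformly. App was higher in every V2 mouse in 5 of 11 types, among them Excitatory (1381 to 1812 CPM in the V2 mice and 1013 to 1138 CPM in the V3.8 mice) and Endothelial (where 23.7% of all genes were), and lower in Oligodendrocytes (593 to 733 CPM in the V2 mice and 756 to 886 CPM in the V3.8 mice, as 13.4% of all genes were). Clstn1 was higher in every V2 mouse in 4 types, Microglia included (13% of all genes), and Aplp2 in 3, while both were lower in Interneuron (17.9% of all genes). Adam10 was higher in none and lower in 2, all neurons (31% of all genes) and OPC_1 (20.5%), and Bace1 was lower in 2, all neurons and Oligodendrocytes (103 to 168 CPM in the V2 mice and 195 to 284 CPM in the V3.8 mice). In Excitatory the 4 genes App, Aplp1, Aplp2 and Clstn1 were all higher in every V2 mouse, by ratios of means from 1.40 to 1.90. The Excitatory cells held a median of 976, 1041.5 and 991 UMIs in WT 1, Fmr1-KO 1 and Fmr1-KO 2 (V2) and 2005, 8588 and 5889.5 in WT 2, WT 3 and Fmr1-KO 3 (V3.8), and the part of this difference in depth was not tested.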

How the data were processed

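UMI counts per gene and cell were deposited without normalization. Per the labels and the methods, the authors aligned InDrop reads to mm10 with TopHat2 2.0.14, counted UMIs per gene with ESAT on RefSeq transcripts, removed barcodes under 700 UMIs, and clustered cells into the subtypes used here. The deposited cell annotation gave each cell's mouse, bead version and subtype, doublets included. The members and gene lists were chosen with earlier results of these data known.

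For each mouse, the counts of all cells of a type were added up, doublets left out. The main test was edgeR 4.0.16 in R 4.3.3 (glmQLFit, TMM, bead version as covariate, genes detected in 15% or more of the cells, Benjamini-Hochberg adjustment over all genes of a type), and effects were compared between types with the mouse as a block. DESeq2 1.42.0 was an alternative. The scripts were tested on simulated data. Values within a bead version are log2 ratios with 0.5 CPM added. Named were the 7 genes, Fmr1, the 3 genes of nearest pattern, and per neuron subtype and Astrocytes_1 the 2 pathway genes with the smallest p. The pathway genes named for their levels, and those named in the section on processing, were chosen after their values were seen. Depth was 7909181 to 20629134 UMIs per mouse.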

Additional observations from a re-analysis of the deposited data

How the results depend on the processing

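The count of 0 genes of the 7 that changed with genotype was also 0 in every alternative run: DESeq2, library sizes without TMM, thinning to 700 UMIs per cell, a fit without the bead version, a replicate block in its place, filterByExpr or no filter on low counts, an adjusted p under 0.05 with no minimum fold, the same mix of neuron subtypes in every mouse, and each mouse left out, where the range was 0 to 0. It was also 0 with cells of shared barcodes left out, an alternative chosen after seeing the data. The lowest adjusted p over these was 0.0671, for App in all neurons without Fmr1-KO 2 (log2 fold change -0.44). Of 804 alternative values of the 57 log2 fold changes, 672 kept their sign, and 11 of the 57 did so throughout. The replicate numbers were not taken to pair the samples: in all neurons the deviations correlated at r = 0.778 for the mice numbered 1 and 0.804 for those numbered 3, which share a bead version, and at -0.502 for those numbered 2, which do not, and with the replicate block the count of members changed was 0, with 1 unadjusted p under 0.05 against 3. The count of pathway genes changed rose from 0 to 1 without a filter on low counts, through Apba1 in all neurons (log2 fold change -0.58, adjusted p = 0.00621), which was at -0.56 with adjusted p = 0.178 otherwise. Without Fmr1-KO 2, Clstn3 in all neurons reached an adjusted p of 0.0477, and without WT 2, Timp3 in Endothelial reached 0.0343; the cause was not tested. Both counts of members whose genotype effect differed between types were 0 in all alternatives. Of 77 levels, 11 moved by over 1 SD when cells were thinned and 3 when averaged over cells. Psen2 was under the filter in all 11 types and was not tested.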
